A study of Homo sapiens with 5 samples.

Results

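The clustered protocadherins are homophilic cell adhesion proteins of the cadherin superfamily, encoded on chromosome 5 in the alpha, beta and gamma clusters. They were taken as the genes of the deposited tables whose symbol is PCDHA, PCDHB, PCDHGA, PCDHGB, PCDHAC or PCDHGC followed by a number. The rule found 48 of the 19716 genes with a read in any library, 9 in the alpha, 17 in the beta and 22 in the gamma cluster. Of the 54 genes that the annotation lists under these names, 7 had no read in any library, all in the alpha cluster (PCDHA2, PCDHA4, PCDHA5, PCDHA6, PCDHA12, PCDHA13 and PCDHA14). All but 1 of the 48 genes were matched to the annotation. The exception, PCDHB18, is described in the files as a pseudogene.

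HEK293T, a line of human embryonic kidney cells that expresses the SV40 large T antigen, was transfected with plasmid DNA, and RNA was extracted 48 h later. Each of 4 groups received plasmids for 5 sgRNAs against the promoter of uPA (the gene PLAU) together with a vector in which the PGK promoter drives nuclease-dead Cas9 fused to blue fluorescent protein and to the catalytic domain of DNMT1, DNMT3A or DNMT3B, or to EGFP (named dCas9-BFP-EGFP, or with the methyltransferase in place of EGFP, and called the EGFP, DNMT1, DNMT3A and DNMT3B fusions in lists). The control received pUC19, an empty cloning plasmid with neither sgRNA nor fusion. The labels state that BFP-positive cells were sorted by FACS, but pUC19 carries no BFP, so it is not clear whether the control cells were sorted in the same way. Each group was 1 library of 1 transfection, and transfection with the vectors, the sgRNAs, the fusion and the sort cannot be told apart in a comparison with pUC19. The dCas9-BFP-EGFP library shares all of these but the methyltransferase domain.

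In the brain, each neuron expresses a small set of clustered protocadherin isoforms, and this set is thought to help a neuron tell its own branches from those of others. Every isoform has its own promoter in front of its own large first exon. In the alpha and gamma clusters that exon is spliced to constant exons at the 3′ end of the cluster, whereas beta genes mostly consist of a single exon. DNA methylation, the factor CTCF and cohesin take part in the choice of promoter, and the C-type isoforms at the 3′ end of the alpha and gamma clusters are controlled differently from the others. In cultured non-neuronal lines the genes are usually expressed at low levels.

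The gamma transcripts carry the same 3′ end, which matters here because only reads that mapped to a single place were counted. In all 22 gamma genes of the annotation the first exon, 2563 to 2677 bases long, was joined to the same constant exons of 2177 bases. The sequences are the last 25 bases of the first exon, in lower case, followed by the first 25 bases of the constant part, in capitals, for the gamma members that the results turn on (GRCh37, plus strand). The constant part starts at chr5:140874374-140874432.
PCDHGA1: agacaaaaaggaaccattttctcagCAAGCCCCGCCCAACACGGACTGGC
PCDHGB2: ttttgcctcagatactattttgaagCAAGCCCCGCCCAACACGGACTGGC
PCDHGA11: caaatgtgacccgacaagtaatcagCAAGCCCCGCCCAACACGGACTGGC
PCDHGC3: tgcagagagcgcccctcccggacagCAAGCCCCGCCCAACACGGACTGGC
PCDHGC4: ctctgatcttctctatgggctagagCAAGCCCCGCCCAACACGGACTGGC
The capitals are identical in every gamma transcript, so that a read inside them cannot be given to an isoform. Counted in words of 30 bases, the shortest read kept, the median share of the longest annotated transcript found in no other gene of the tables was 52.5% in the gamma cluster (range, 43.1% to 91.1%) and 44.8% in the alpha cluster (32.5% to 87.5%). It was 87% in the beta cluster (58% to 98.6%). TPM, the read count divided by the transcript length and scaled to a fixed sum, uses the whole length, including the part that unique reads cannot reach. Of the members with the most reads, PCDHGA11, PCDHGC3 and PCDHGC4 each had 54.8% of their length in sequence of their own, PCDHB9 78%, PCDHA9 87.5% and PCDHB15 90.1%. These shares are of the longest annotated transcript, which need not be the deposited one. The longest transcript of PCDHGA6, the gamma member with 91.1%, shared 7.08% of its words with its cluster, too little to hold the constant exons. That of PCDHA9 shared 17.1%, against 60.9% for PCDHA1. How the 87.5% of PCDHA9 applies to its deposited transcript was not tested.

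Reads of clustered protocadherins were few in every library. They made up 601 reads in the dCas9-BFP-DNMT1 library, 678 in dCas9-BFP-DNMT3A, 510 in dCas9-BFP-DNMT3B, 598 in dCas9-BFP-EGFP and 698 in pUC19, out of totals between 26250000 and 36140000 reads. In reads per 1000000 total reads (RPM), with exact 95% intervals, this was 21.7 (19.98 to 23.5), 23.0 (21.3 to 24.8), 18.8 (17.2 to 20.5), 22.8 (21.0 to 24.7) and 19.3 (17.9 to 20.8). Intervals and floors given here cover the counting of reads only, since reads were amplified over 12 PCR cycles without molecular identifiers and no group had a replicate. The intervals of dCas9-BFP-DNMT3A and dCas9-BFP-EGFP lay above those of dCas9-BFP-DNMT3B and pUC19, and that of dCas9-BFP-DNMT1 overlapped all others. The totals include reads of the fused domain, which lower the RPM of other genes. These were 1624754 DNMT3B reads in dCas9-BFP-DNMT3B (3129 in pUC19), 979416 DNMT1 reads in dCas9-BFP-DNMT1 and 937571 DNMT3A reads in dCas9-BFP-DNMT3A. Values without these reads were not computed, so the intervals do not settle the place of dCas9-BFP-DNMT3B. In bulk RNA, fewer cells with a transcript and fewer transcripts per cell cannot be told apart. Between 34 and 40 of the 48 members had a read in a given library, 25 had one in all 5 libraries and 8 in 1 library. The median member lay between 0.0408 and 0.0714 TPM, whereas the median gene with a read lay between 9.47 and 11.3 TPM.

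**Figure D1:**
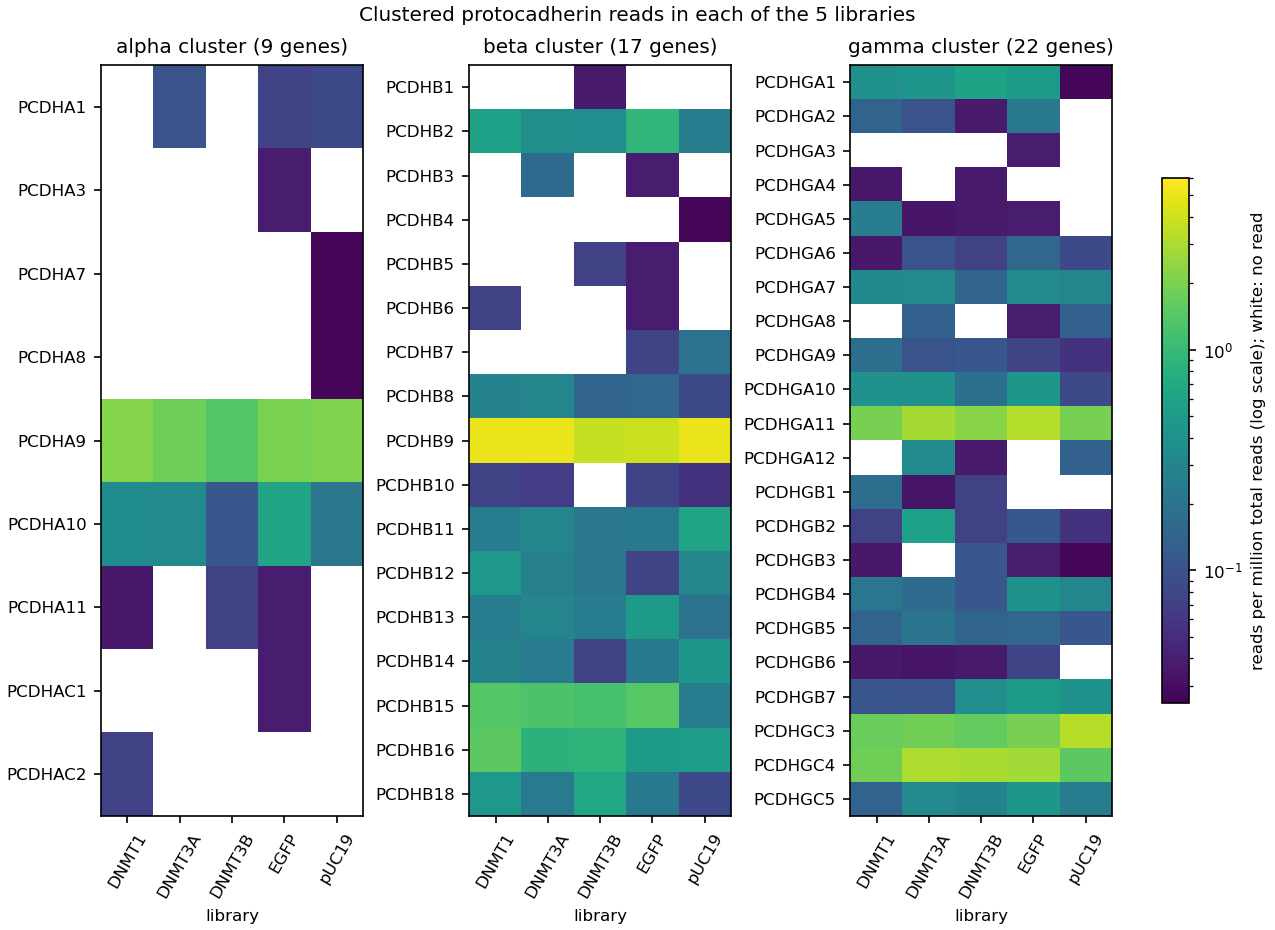
Reads per 1000000 total reads (RPM) of each of the 48 clustered protocadherins (rows) in the 4 libraries of dCas9-BFP fusions, labelled by the fused domain, and in pUC19 (columns), on a logarithmic colour scale, with white for no read. PCDHB9 is the brightest row in every library, and the rows PCDHB15 and PCDHGA1 are darker in pUC19 than in the 4 fusions.

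A few isoforms held most of the reads. The 7 members with at least 100 reads over the 5 libraries (PCDHB9, PCDHGA11, PCDHGC4, PCDHGC3, PCDHA9, PCDHB15 and PCDHB16) held 73.3% of all 3085 reads, and 19 members had fewer than 10 reads in all. PCDHB9 had the highest TPM in each library, with 2.74 in dCas9-BFP-DNMT1, 2.81 in dCas9-BFP-DNMT3A, 2.10 in dCas9-BFP-DNMT3B, 2.12 in dCas9-BFP-EGFP and 2.73 in pUC19. Its counting interval did not reach that of the next member in dCas9-BFP-DNMT1, dCas9-BFP-DNMT3A and pUC19, but did so in dCas9-BFP-DNMT3B and dCas9-BFP-EGFP. The second place was taken by PCDHB15 in dCas9-BFP-DNMT1 (1.18 TPM), by PCDHGC4 in dCas9-BFP-DNMT3A (1.53 TPM) and dCas9-BFP-DNMT3B (1.57 TPM), by PCDHGA11 in dCas9-BFP-EGFP (1.54 TPM) and by PCDHGC3 in pUC19 (1.59 TPM). In pUC19 PCDHGC3 was separated from its neighbours on both sides. From the second place on, each member of at least 20 reads in a fusion library had an interval that overlapped that of the next. Divided by the length found in no other gene instead of the whole length, the order changed, with PCDHGC4 first in dCas9-BFP-DNMT3B and PCDHGA11 first in dCas9-BFP-EGFP. The length found in no other gene comes from the longest annotated transcript, whereas TPM uses the deposited transcript length.

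The beta and gamma clusters held most of the reads. The beta share was 49.9% (Wilson 95% interval, 45.9% to 53.9%) in dCas9-BFP-DNMT1, 41.5% (37.8% to 45.2%) in dCas9-BFP-DNMT3A, 41.8% (37.6% to 46.1%) in dCas9-BFP-DNMT3B, 36.8% (33.0% to 40.7%) in dCas9-BFP-EGFP and 42.0% (38.4% to 45.7%) in pUC19. By reads, only dCas9-BFP-DNMT1 had more beta than gamma, 300 against 228, and its interval for the beta share did not overlap those of dCas9-BFP-DNMT3A, dCas9-BFP-EGFP and pUC19. PCDHB9 alone held 143 of these 300 reads, which covered 25.2% of its transcript. Without PCDHB9 the beta cluster had 157 reads in dCas9-BFP-DNMT1, fewer than the gamma cluster. The gamma share lay between 37.9% in dCas9-BFP-DNMT1 and 51.0% in dCas9-BFP-EGFP. The alpha share lay between 8.43% in dCas9-BFP-DNMT3B and 12.6% in pUC19, and of the 340 reads of PCDHA isoforms 278 belonged to PCDHA9. The order of the clusters depended on the scale. By TPM the beta share was above the gamma share in dCas9-BFP-DNMT3A (48.8% against 44.4%), dCas9-BFP-DNMT3B (49.3% against 45.0%) and pUC19 (48.6% against 42.4%) too, and per length found in no other gene it was below in every library, also in dCas9-BFP-DNMT1 (45.9% against 47.7%). That length is taken from the longest annotated transcript and can exceed the deposited transcript length, as in PCDHB15 (3579 against 2661 bases). How far this mismatch moved the order was not tested. With 1 library per group these shares have no replicate check.

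**Figure D2:**
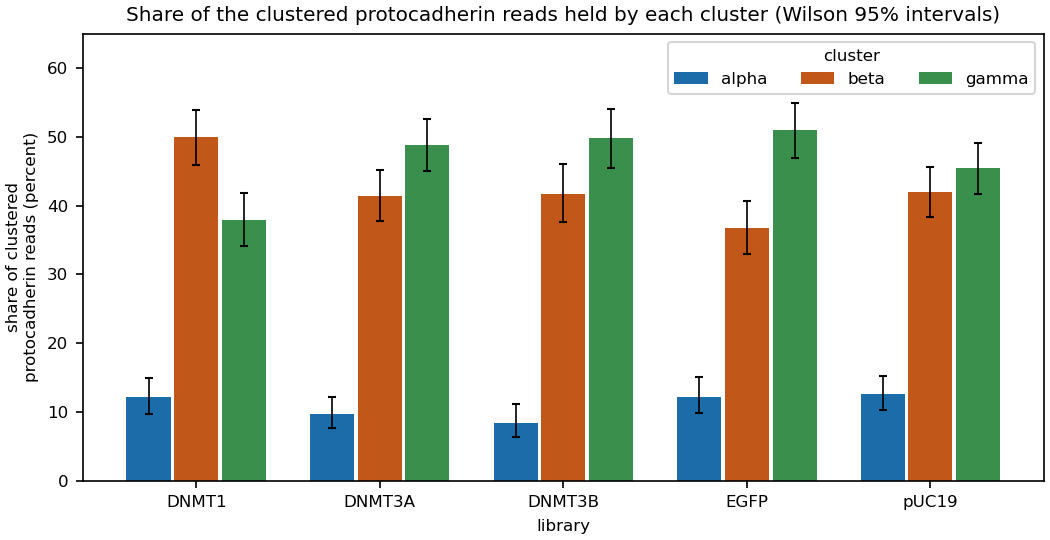
Share of the clustered protocadherin reads, in percent, held by the alpha, beta and gamma clusters in each library (fusions are labelled by the fused domain). Bars are shares and error bars are Wilson 95% intervals of read counting. The beta bar is above the gamma bar in the dCas9-BFP-DNMT1 library, with 49.9% against 37.9%, and below it in the other 4 libraries. By TPM or per unique length the order differs. Without PCDHB9, the beta reads of dCas9-BFP-DNMT1 were fewer than its gamma reads.

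To ask whether the expression of these genes differed between the fusions and the control, reads of each gene were compared between 2 libraries by an exact conditional binomial test with Benjamini-Hochberg adjustment over all genes. Calls needed both an adjusted p no larger than 0.001 and at least a 2-fold difference in TPM + 0.1, after the thresholds of the study. Such a call compares 2 libraries and not 2 conditions. Compared to pUC19, 2 of 42 members tested were called in dCas9-BFP-DNMT1, where 5.29% of all genes tested were called. In dCas9-BFP-DNMT3A 3 of 39 members were called, against 9.45% of all genes, and in dCas9-BFP-DNMT3B 3 of 42, against 8.89%. In dCas9-BFP-EGFP 2 of 44 members were called, against 5.77%. The members' shares, 4.76%, 7.69%, 7.14% and 4.55%, were near those of all genes. Every member called was higher in the fusion. No member was called against pUC19 with a pseudocount of 1 TPM, or with a coefficient of variation of 0.2 in the edgeR exact test. Of all genes, 2.86%, 6.03%, 5.86% and 3.39% were called with that pseudocount in the DNMT1, DNMT3A, DNMT3B and EGFP fusions. With that coefficient of variation it was 0.205%, 0.717%, 0.617% and 0.308%, so few calls were open to the members. The 4 comparisons share the pUC19 library, and its reads alone set the lower side of each. The median log2 fold change over the members tested was 0.13, 0.23, 0.19 and 0.22 in the 4 comparisons, and that over all genes tested was -0.15, -0.06, -0.05 and -0.00.

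PCDHB15, an isoform of the beta cluster (chr5:140624963-140628933, GRCh37, plus strand, 1 exon), was called in all 4 fusions. It had 39 reads in dCas9-BFP-DNMT1, 38 in dCas9-BFP-DNMT3A, 33 in dCas9-BFP-DNMT3B, 38 in dCas9-BFP-EGFP and 9 in pUC19, which is 1.41, 1.29, 1.22, 1.45 and 0.249 RPM. The 4 fusions lay close to each other and pUC19 lay below them all, with an interval (up to 0.473 RPM) that did not overlap any of theirs. The ratio of RPM to pUC19 was 5.65 (exact 95% interval, 2.69 to 13.3), 5.18 (2.46 to 12.2), 4.88 (2.28 to 11.6) and 5.81 (2.76 to 13.7). In log2 of TPM + 0.1 this was 2.04, 1.97, 1.94 and 2.13, with an adjusted p of the exact conditional binomial test between 3.43e-07 and 1.29e-05. Its reads covered 30.3% to 50.2% of the transcript in the fusions and 15.9% in pUC19. PCDHB15 was not called between any pair of fusions. The smallest and largest ratios between 2 fusions were 0.839 (0.510 to 1.37) for dCas9-BFP-DNMT3B against dCas9-BFP-EGFP and 1.06 (0.649 to 1.75) for dCas9-BFP-DNMT3A against dCas9-BFP-DNMT3B. The EGFP fusion, without a methyltransferase, had the highest RPM of PCDHB15 among the 4 fusions, by less than the counting error.

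PCDHGA1, the first isoform of the gamma cluster (chr5:140710081-140892542, its own exon at chr5:140710081-140712672), had 11, 13, 16 and 13 reads in the DNMT1, DNMT3A, DNMT3B and EGFP fusions, and 1 read in pUC19. It was called in dCas9-BFP-DNMT3A (ratio of RPM, 16 with an exact interval of 2.40 to 678), dCas9-BFP-DNMT3B (21.3, 3.31 to 893) and dCas9-BFP-EGFP (17.9, 2.69 to 761). In dCas9-BFP-DNMT1 the ratio was 14.3 (2.08 to 617), with an adjusted p of 1.76e-03 by the exact test, just short of the threshold. With a single read in pUC19 the size of the difference is known only within these wide intervals.

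The other 3 members called differed in a single fusion or in 2 comparisons. PCDHB18, listed as a pseudogene, had 13, 7, 18, 6 and 3 reads in the DNMT1, DNMT3A, DNMT3B and EGFP fusions and pUC19, and was called in dCas9-BFP-DNMT3B (ratio, 7.98, 2.33 to 42.3). PCDHGB2, a gamma B isoform, had 2, 17, 2, 3 and 2 reads in the same order and was called in dCas9-BFP-DNMT3A (10.4, 2.48 to 93.1). The 17 reads of dCas9-BFP-DNMT3A stood apart from the other 4 libraries, but the comparisons of this library with the other fusions were not called, with adjusted p between 2.06e-03 and 1.24e-02 by the exact test. PCDHB16 had 42, 25, 24, 13 and 19 reads and was called in dCas9-BFP-DNMT1 against pUC19 (2.88, 1.64 to 5.25). It was the only member called between 2 fusions, dCas9-BFP-DNMT1 against dCas9-BFP-EGFP, at a ratio of 3.06 (1.61 to 6.21) and a log2 fold change of 1.25, for which the exact test gave 7.73e-04 after adjustment. That made 1 of 43 members, where 1.48% of all genes were called. The libraries of dCas9-BFP-DNMT3A and dCas9-BFP-DNMT3B, with 25 and 24 reads, lay between these.

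**Figure D3:**
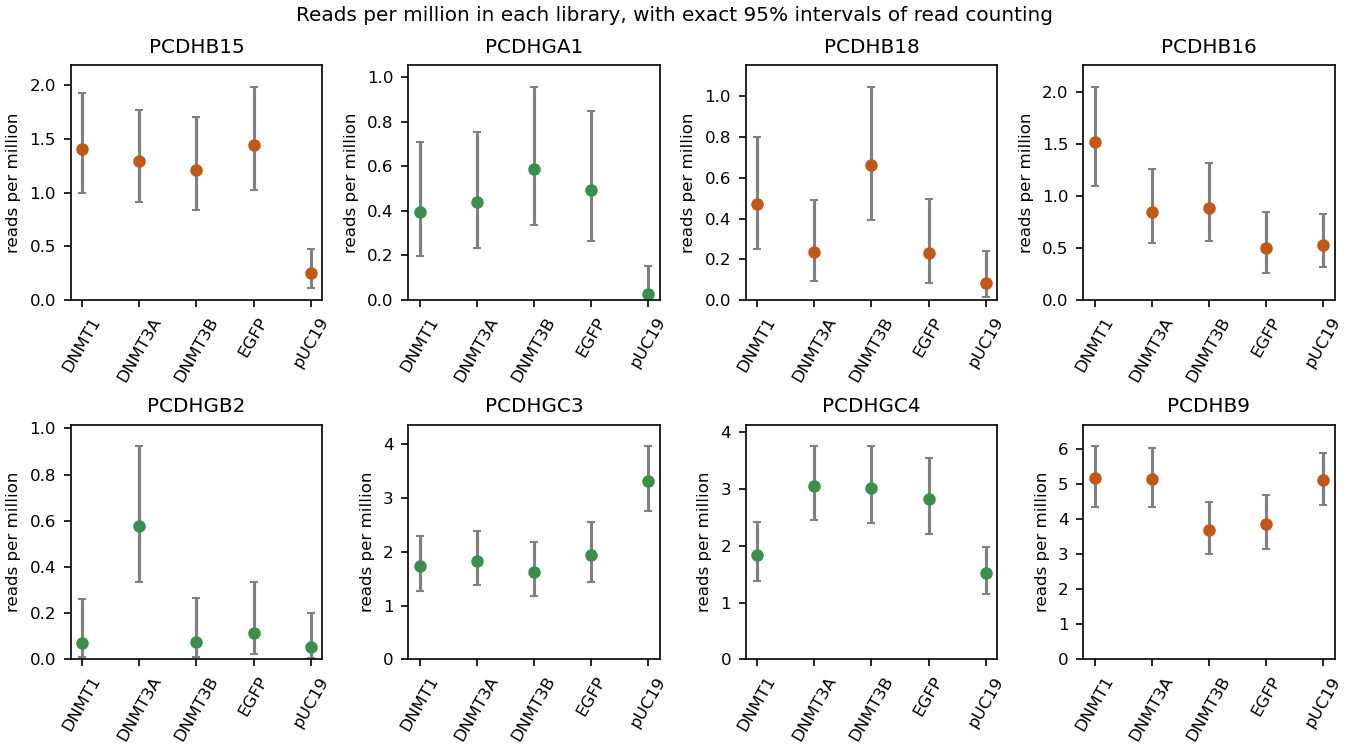
Reads per 1000000 total reads (RPM) of 8 clustered protocadherins in each library, fusions labelled by the fused domain, with exact 95% intervals of read counting. Points are single libraries and each panel has its own scale from 0. In PCDHB15 and PCDHGA1 the pUC19 point lies below the 4 fusions, in PCDHGC3 it lies above them, and in PCDHGB2 the dCas9-BFP-DNMT3A point stands alone.

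Among the C-type isoforms, PCDHGC3 and PCDHGC4 were read in every library and lay on opposite sides of pUC19 without being called at the thresholds used. PCDHGC3 (chr5:140855514-140892544) is the C-type isoform known for broad expression outside neurons. It had 48, 54, 44, 51 and 120 reads in the DNMT1, DNMT3A, DNMT3B and EGFP fusions and pUC19, or 1.73, 1.83, 1.62, 1.94 and 3.32 RPM. All 4 fusions were below pUC19 with intervals that did not overlap its own (2.75 to 3.97 RPM). The ratio to pUC19 was 0.522 (0.365 to 0.735), 0.553 (0.393 to 0.768), 0.488 (0.337 to 0.695) and 0.585 (0.413 to 0.819), and log2 of TPM + 0.1 differed by -0.88, -0.76, -0.87 and -0.68. The adjusted p of the exact test was 2.38e-04, 5.09e-04, 5.98e-05 and 2.51e-03, so that the p passed in 3 fusions and the fold change in none. PCDHGC4 (chr5:140864564-140892542) had 51, 90, 82, 74 and 55 reads, or 1.84, 3.06, 3.02, 2.82 and 1.52 RPM. Its ratio to pUC19 was 2.01 (1.42 to 2.86) in dCas9-BFP-DNMT3A and 1.98 (1.39 to 2.84) in dCas9-BFP-DNMT3B, with log2 values of 0.94 and 0.99 just under the threshold and adjusted p of 8.68e-05 and 2.03e-04 by the exact test. PCDHGC4 was called in both with a pseudocount of 0.01 TPM or after thinning to the smallest library, and in dCas9-BFP-DNMT3B with TMM scaling. The ratio was 1.21 (0.810 to 1.80) in dCas9-BFP-DNMT1 and 1.85 (1.29 to 2.68) in dCas9-BFP-EGFP. As a share of all clustered protocadherin reads, PCDHGC3 held 17.2% (Wilson 95% interval, 14.6% to 20.2%) in pUC19 and 7.97% to 8.63% in the fusions. The C-type isoforms PCDHGC5, PCDHAC1 and PCDHAC2 had 4 to 12 reads, at most 1 read and at most 2 reads per library. PCDHAC1 and PCDHAC2 had no read in pUC19, where a floor of 3 reads stands for 0.083 RPM.

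Several of the most abundant isoforms were not called between the fusions and pUC19. PCDHB9 had 143, 151, 100, 101 and 184 reads in the DNMT1, DNMT3A, DNMT3B and EGFP fusions and pUC19, and its ratio to pUC19 ranged from 0.723 (0.561 to 0.928) in dCas9-BFP-DNMT3B to 1.01 (0.809 to 1.27) in dCas9-BFP-DNMT1. PCDHA9 had 60, 53, 38, 52 and 75 reads, with ratios from 0.674 (0.444 to 1.01) to 1.04 (0.730 to 1.48). PCDHGA11 had 54, 85, 61, 85 and 70 reads, with ratios from 1.01 (0.692 to 1.46) in dCas9-BFP-DNMT1 to 1.67 (1.20 to 2.33) in dCas9-BFP-EGFP. The intervals of these 3 isoforms reached from 0.444 to 2.33, and those of PCDHA9 and PCDHGA11 include 2-fold changes. The remaining members of the 5 most read in each cluster were not called. These were PCDHA10 (3 to 16 reads per library), PCDHB2 (9 to 24), PCDHB11 (6 to 22), PCDHGA7 (4 to 11), PCDHGA10 (3 to 12) and PCDHGB7 (3 to 15), and in the alpha cluster PCDHA1, PCDHA3 and PCDHA11 with at most 3 reads in a library. Of the 48 members, 26 were neither among the most read, nor of C-type, nor called; they had between 1 and 43 reads over all 5 libraries, with a median of 8.5, and at most 16 in a library. At such counts most differences between 2 libraries were not detectable.

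To compare the methyltransferase domains with EGFP under the same sgRNAs, and with each other, the fusions were tested pairwise. Against dCas9-BFP-EGFP, 0 of 42 members were called in dCas9-BFP-DNMT3A, where 4.09% of all genes were, and 0 of 44 in dCas9-BFP-DNMT3B, against 3.62%. Against dCas9-BFP-DNMT1, 0 of 39 members were called in dCas9-BFP-DNMT3A, against 3.62% of all genes, and 0 of 38 in dCas9-BFP-DNMT3B, against 3.59%. Between dCas9-BFP-DNMT3A and dCas9-BFP-DNMT3B 0 of 39 members were called, against 0.242% of all genes. Genes of low read count rarely reach the thresholds, and these counts of 0 do not show that the members' levels were equal. The ratio of PCDHGC4 to dCas9-BFP-DNMT1 was 1.66 (1.17 to 2.39) in dCas9-BFP-DNMT3A and 1.64 (1.14 to 2.38) in dCas9-BFP-DNMT3B, with adjusted p of 9.25e-03 and 1.25e-02 by the exact test, which did not pass.

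The constructs were also used as stand-ins for replicates, with edgeR's quasi-likelihood test over all genes. For the 4 fusions against pUC19, 20 of the 48 members passed the filter on low counts and 0 had an adjusted p under 0.05, where 0.737% of all genes tested did. DESeq2 gave an adjusted p for 7 of the 48 members and called 1 of these, beside 6.63% of all genes with an adjusted p (PCDHB15, log2 fold change 2.51, SE 0.71, adjusted p 0.0115). At an unadjusted p under 0.05, edgeR gave 3 members (PCDHB15, PCDHGA1 and PCDHGC3), beside 18% of all genes tested. The edgeR log2 fold change of PCDHB15 was 2.49 (SE 0.56, adjusted p 0.0784), that of PCDHGA1 was 4.0 (SE 1.04, adjusted p 0.105), and that of PCDHGC3 was -0.81 (SE 0.33, adjusted p 0.242). For dCas9-BFP-DNMT3A and dCas9-BFP-DNMT3B against dCas9-BFP-DNMT1 and dCas9-BFP-EGFP, 12 members passed the filter. Of these, 0 had an edgeR adjusted p under 0.05, beside 11% of all genes, 0 had an unadjusted p under 0.05, beside 28.8%, and DESeq2 called 0 of the 4 members to which it gave an adjusted p, beside 16.5% of all such genes. The smallest unadjusted edgeR p, 0.0634, was that of PCDHB2, with a log2 fold change of -1.0 (SE 0.47, adjusted p 0.2). PCDHGC4 had a log2 fold change of 0.38 (SE 0.29, adjusted p 0.417 by edgeR). The count over all genes in this comparison, 1694, rested on single libraries, since it was 18 without dCas9-BFP-DNMT3A, 53 without dCas9-BFP-DNMT3B, 3536 without dCas9-BFP-DNMT1 and 3850 without dCas9-BFP-EGFP.

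The reads of the members were spread unevenly over their transcripts. PCDHB9 reads covered 25.2%, 23.0%, 15.2%, 15.1% and 13.4% of its 4220 bases in the DNMT1, DNMT3A, DNMT3B and EGFP fusions and pUC19. In pUC19 184 reads lay on 567 bases, whereas the median covered part of the 590 genes of like read count and length (within 1.5-fold) was 72.1%, and 13 of them, or 2.2%, were covered as little, the lowest share for PCDHB9 in any library (5.3% to 7.85% in the fusions). PCDHA9 had 75 reads over 8.13% of its 6388 bases in pUC19, where the median of 250 such genes was 39% and 9.2% were covered as little, against 3.21% to 8.66% in the fusions. PCDHGC4, with 55 reads in pUC19, was covered over 61%, against a median of 38.8%, and 93.6% of such genes were covered at most as much. That share was 67.6% to 83.4% in the fusions. Reads of PCDHB9 and PCDHA9 thus came from a small part of the transcript, and what this part is was not tested, since the tables give no positions. The longest annotated transcript of PCDHB9 held 78% of its length, and that of PCDHA9 87.5%, in sequence found in no other gene of the tables. How the share of PCDHA9 applies to its deposited transcript was not tested. For PCDHGC4 the covered part reached 3067 bases in dCas9-BFP-DNMT3A, more than the 2612 bases found in no other gene, so that the covered sequence extended beyond it.

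Promoters of the members hold fewer CpG sites, the substrate of the methyltransferases, than those of most genes. In the 300 bases from 250 upstream to 50 downstream of the annotated start site (GRCh37), the 47 matched members had a median of 7 CpG (range, 2 to 27), against 24 for the 17600 genes with such a window. Relative to the number expected from the C and G content of each window, the gap was smaller, with a median ratio of 0.593 against 0.794. Among the C-type isoforms PCDHAC1 had 27, PCDHGC4 23, PCDHGC3 18, PCDHAC2 15 and PCDHGC5 5. PCDHB15, the member called in all 4 fusions, had 6, and PCDHGA1 had 4. The windows of PCDHB15 (chr5:140624713-140625012) and PCDHGC4 (chr5:140864347-140864646) are shown in lower case with each CpG in capitals. Among the members they are a CpG-poor and a CpG-rich case, although the 23 CpG of PCDHGC4 lie near the median of all genes.
PCDHB15: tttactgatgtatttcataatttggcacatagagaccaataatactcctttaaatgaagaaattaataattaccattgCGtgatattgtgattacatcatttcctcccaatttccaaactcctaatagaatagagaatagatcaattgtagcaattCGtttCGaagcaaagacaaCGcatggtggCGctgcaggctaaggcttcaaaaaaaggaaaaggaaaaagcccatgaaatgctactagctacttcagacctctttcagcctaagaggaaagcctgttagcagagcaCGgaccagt
PCDHGC4: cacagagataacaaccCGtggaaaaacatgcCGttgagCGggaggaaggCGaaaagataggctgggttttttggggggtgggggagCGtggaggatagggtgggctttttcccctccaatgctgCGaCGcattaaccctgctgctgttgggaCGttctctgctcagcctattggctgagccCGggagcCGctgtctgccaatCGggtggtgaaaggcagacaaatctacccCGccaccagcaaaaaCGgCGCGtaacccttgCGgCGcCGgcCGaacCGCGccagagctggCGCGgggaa
No methylation was measured at these promoters in the tables used here.

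The promoters also share sequence that the choice of members did not use. The motif CGCT, known as the core of the conserved element of these promoters that CTCF binds, was found on either strand in 45 of 47 windows, but 84.7% of all windows of this length hold these 4 letters. Words of 8 letters were ranked on the strand of the gene, after the windows were read. The overlapping words GTGGCGCT and GGTGGCGC were each found in 14 members, more than any other on that strand. A word overlapping both, TGGCGCTG, was found in 13, or in 14 on either strand. Of these GTGGCGCT is the rarest over all promoters. It stood in 14 of the 16 beta windows, on the strand of the gene in each, and in none of the 9 alpha and 22 gamma windows, whereas 1.66% of the windows of all genes held it on either strand. It overlaps CGCT. Between its last base and the start site lay at most 77 bases, with a median of 57.5, and in PCDHB8 the word spanned the start site. PCDHB1 and PCDHB6 lacked it. The word is in capitals in the following stretches, shown for the beta genes with the most reads.
PCDHB9: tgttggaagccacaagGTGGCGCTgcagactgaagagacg
PCDHB15: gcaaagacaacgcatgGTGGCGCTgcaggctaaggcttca
PCDHB16: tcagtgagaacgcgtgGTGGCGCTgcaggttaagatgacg
PCDHB2: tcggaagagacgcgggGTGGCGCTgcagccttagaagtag
PCDHB11: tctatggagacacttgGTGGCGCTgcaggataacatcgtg
They lie at chr5:140566644-140566683, chr5:140624878-140624917, chr5:140561881-140561920, chr5:140474125-140474164 and chr5:140579099-140579138. PCDHB15 and PCDHB16, called in at least 1 fusion, and PCDHB9, PCDHB2 and PCDHB11, called in none, carried the same word.

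Other genes of the pathway and region were described by lists. All 22 regulators of protocadherin promoters in the list, among them CTCF, cohesin and SETDB1, were above 1 TPM in every library. Compared to pUC19, 0, 1, 1 and 0 of them were called in the DNMT1, DNMT3A, DNMT3B and EGFP fusions. Of all genes, 5.29%, 9.45%, 8.89% and 5.77% were called in these comparisons. The gene called was MAU2, part of the cohesin loader, with 60.5, 101, 109, 94.1 and 47.5 TPM in the 4 fusions and pUC19. CTCF was at 91.8, 140, 142, 139 and 82.6 TPM and was not called. SETDB1, a histone methyltransferase that represses the clusters, was higher in dCas9-BFP-DNMT3A and dCas9-BFP-DNMT3B than in the other 2 fusions (log2 fold change 0.45, edgeR adjusted p 0.0434), in the fit whose count of calls rested on single libraries. That fit called 1 of 22 regulators, beside 11% of all genes.

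Of 11 protocadherins outside the clusters, 6 were above 1 TPM in every library, and PCDH9 was at 12.2 to 21.8 TPM, well above any clustered isoform. Compared to pUC19, 0, 2, 0 and 1 were called in the 4 fusions, all lower, beside 5.29%, 9.45%, 8.89% and 5.77% of all genes. The same shares of all genes apply to the counts of partners and flanking genes against pUC19 below. PCDH17 and PCDH19 were called in dCas9-BFP-DNMT3A and PCDH19 in dCas9-BFP-EGFP, with PCDH19 at 1.09, 0.602, 0.936, 0.752 and 1.75 TPM in the order used above. PCDH9 was lower in dCas9-BFP-DNMT3A and dCas9-BFP-DNMT3B than in the other 2 fusions (log2 fold change -0.49, edgeR adjusted p 0.0466). Of 16 partners and proteases of protocadherins, 0, 1, 1 and 2 were called, all higher, namely PTK2B in the DNMT3A, DNMT3B and EGFP fusions and WASF2, a part of the WAVE complex, in dCas9-BFP-EGFP. PTK2B, a kinase that binds the alpha and gamma constant domains, was at 4.10, 5.92, 5.31, 7.63 and 2.54 TPM. CYFIP1 and NCSTN, parts of the WAVE complex and of gamma-secretase, were lower in dCas9-BFP-DNMT3A and dCas9-BFP-DNMT3B than in the other 2 fusions (log2 fold change -0.81 and -0.47, edgeR adjusted p 0.00659 and 0.0340). Of 12 genes flanking the clusters on chromosome 5, 0, 0, 1 and 0 were called against pUC19, the 1 being ARAP3, higher in dCas9-BFP-DNMT3B. Among them FCHSD1 and HARS2 were higher in dCas9-BFP-DNMT3A and dCas9-BFP-DNMT3B than in the other 2 fusions (log2 fold change 0.64 and 0.59, edgeR adjusted p 0.0457 and 0.0368). The values of PCDH9, CYFIP1, NCSTN, FCHSD1 and HARS2 come from the fit whose count of calls rested on single libraries. It called 1 of 10 protocadherins outside the clusters, 2 of 16 partners and 2 of 12 flanking genes, beside 11% of all genes.

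Some properties of the libraries as a whole move with the comparison with pUC19. PLAU, the targeted gene, had 6, 6, 1 and 4 reads in the 4 fusions and 106 in pUC19. Neuronal genes, which HEK293T is known to express, include members that were lower in all 4 fusions. Of 9 listed genes of HEK293 and neuronal lineage, 3 were called lower in every fusion (NEFL, NEFM and SNAP25), and INA was called higher in dCas9-BFP-DNMT3B. Of all genes, 5.29%, 9.45%, 8.89% and 5.77% were called against pUC19 in the DNMT1, DNMT3A, DNMT3B and EGFP fusions. NEFM was at 48.1, 60.2, 60.1 and 34.3 TPM in the fusions and 193 TPM in pUC19. The summed level of the 9 genes ranged from 631.6 to 798.9 TPM over the libraries. Most of it was VIM, at 463, 599, 579 and 502 TPM in the fusions and 437 TPM in pUC19. The sum therefore says little about the other genes of the list. Of 11 kidney epithelium markers with a read, 8 were under 1 TPM in every library, while LRP2 and PAX2 were above it. LRP2 was called lower in dCas9-BFP-DNMT3A against pUC19, and of 3 glial markers OLIG2 was called lower in dCas9-BFP-DNMT1. LRP2 was lower and OLIG2 higher in dCas9-BFP-DNMT3A and dCas9-BFP-DNMT3B than in the other 2 fusions (edgeR log2 fold change -0.89 and 0.74, adjusted p 0.0118 and 0.0474). In that fit, whose count of calls rested on single libraries, 1 of 5 kidney and 1 of 3 glial markers differed, beside 11% of all genes. The part of these differences in the values of PCDHB15, PCDHGA1 and PCDHGC3 was not tested.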

How the data were processed

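RNA was measured in 5 HEK293T libraries, 1 per group, and grouped by sample title. Poly(A) RNA was fragmented, amplified over 12 PCR cycles and read on an Ion Proton sequencer. Reads with adaptor, of low quality or under 30 nt were removed by the authors, who mapped the others by tmap, at up to 3 mismatches, to hg19 (GRCh37) RefSeq transcripts and used those with a single place. The tmap version and RefSeq release are not given in the sources used here. The deposited read counts are whole numbers without normalization. The deposited TPM values are counts per transcript length scaled to a fixed sum, and recomputing them gave the same values. The coverage in percent deposited by the authors is not defined and was read as the covered part of the transcript. Where a table did not list a gene, its count was taken as 0.

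Totals were 26250000 to 36140000 reads, so 3 reads stand for 0.083 to 0.114 RPM. They include the reads of the fused methyltransferase domains. Intervals are exact (Clopper-Pearson) or Wilson at 95%. For pairs, the exact conditional binomial test was two-sided and used both library totals (scipy 1.17.1), and the fits used edgeR 4.0.16 (TMM, filterByExpr, glmQLFit, R 4.3.3) and DESeq2 1.42.0. The SE printed with an edgeR fold change was derived from the test. It is the size of the log2 fold change divided by the square root of the F statistic. The SE of DESeq2 is the one it reports. P-values from 1 library per group measure the spread between these libraries or the counting of reads. Alternatives were other pseudocounts (1 and 0.01 TPM), at least 20 reads, TMM factors, a spread of 0.2 (coefficient of variation) assumed in edgeR's exact test, an adjusted p of at most 0.05, thinning, and for the fits DESeq2, median-ratio size factors, no filter, a GC content and length offset, and leaving out each fusion. Both tests were also run on simulated counts, in which the changed genes had more reads than most members. These runs therefore do not show how the tests behave at the members' counts.

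Members named are C-type isoforms, the 5 with the most reads in the alpha, the beta and the gamma A and B groups (ties by symbol), and those called against pUC19 or dCas9-BFP-EGFP or past an edgeR fit. Genes of other lists are named if called in at least 2 comparisons with pUC19 or past a fit, with a few added after their values were seen (CTCF, PAX2, PCDH17, WASF2, ARAP3, INA). The members and lists were chosen with earlier results of these data known. Positions and shared sequence come from GENCODE v44 lifted to GRCh37, and 30-base words were compared exactly with all transcripts of the genes in the tables. Promoter windows were read from the GRCh37 genome.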

Additional observations from a re-analysis of the deposited data

Results flagged for a closer look

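PCDHB16 is listed because its level differed between 2 fusions that share the control. It was called in dCas9-BFP-DNMT1 against dCas9-BFP-EGFP at a log2 fold change of 1.25, from 42 against 13 reads, with an adjusted p of 7.73e-04 by the exact conditional binomial test. With an assumed coefficient of variation of 0.2 the adjusted p of the edgeR exact test was 0.840, and with a pseudocount of 1 TPM the log2 fold change was 0.46. Samples could not be checked for outliers within a group, since each group has 1 library.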

How the results depend on the processing

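No paired analysis was possible because each group has 1 library. The calls in single pairs of libraries rest on few reads and on the assumption that only read counting adds error. Against pUC19, 2, 3, 3 and 2 members were called in the DNMT1, DNMT3A, DNMT3B and EGFP fusions. With a coefficient of variation of 0.2, and also with a pseudocount of 1 TPM, 0 members were called in each of these, and 0 instead of 1 in dCas9-BFP-DNMT1 against dCas9-BFP-EGFP. Of all genes, 0.205% to 0.717% and 2.86% to 6.03% were called against pUC19 in these 2 settings. In dCas9-BFP-DNMT1 against dCas9-BFP-EGFP it was 0.0372% and 0.696%. The pseudocount lowers the fold change of any gene below 1 TPM by construction. With at least 20 reads in either library, which drops genes such as PCDHGA1, 1 member, PCDHB15, was called in dCas9-BFP-DNMT3A, dCas9-BFP-DNMT3B and dCas9-BFP-EGFP. That was 1 of 8 members tested, beside 11.8%, 11.2% and 7.3% of all genes. In dCas9-BFP-DNMT1, 2 of 8 were called, beside 6.61%. Thinned to the smallest library, 1 member (PCDHB15) was called in dCas9-BFP-DNMT1 and 1 (PCDHB15) in dCas9-BFP-EGFP, 2 in dCas9-BFP-DNMT3A (PCDHB15 and PCDHGC4, without PCDHGA1 and PCDHGB2) and 3 in dCas9-BFP-DNMT3B (PCDHB18, PCDHGA1 and PCDHGC4, without PCDHB15, at an adjusted p of 1.49e-03 by the exact test). Of all genes, 4.93%, 9.01%, 8.65% and 5.51% were called after thinning in the DNMT1, DNMT3A, DNMT3B and EGFP fusions. At an adjusted p of at most 0.05, 7, 6, 5 and 5 members were called against pUC19 in the order above, beside 7.78%, 12.1%, 11.5% and 7.92% of all genes (members, 16.7%, 15.4%, 11.9% and 11.4%). So were 4, 3 and 3 in dCas9-BFP-DNMT3A, dCas9-BFP-DNMT3B and dCas9-BFP-DNMT1 against dCas9-BFP-EGFP (all genes, 6.59%, 6.09% and 3.41%), 2 in dCas9-BFP-DNMT3A against dCas9-BFP-DNMT1 (5.62%) and 2 in dCas9-BFP-DNMT3A against dCas9-BFP-DNMT3B (1.26%). Of the calls against pUC19 at this threshold, PCDHB7 was lower in dCas9-BFP-DNMT1, dCas9-BFP-DNMT3A and dCas9-BFP-DNMT3B (0 against 7 reads in each). PCDHB14 was lower in dCas9-BFP-DNMT3B (2 against 16 reads), and the other calls were higher. For the 4 fusions against pUC19, DESeq2 called 1 member where edgeR called 0, and leaving out each fusion gave 0 members in both fits. Over all genes, the count for the 4 fusions against pUC19 was 118 by edgeR, 977 by DESeq2, 252 without a filter on low counts and 65 to 95 without 1 fusion. The cause of these differences was not tested. The beta share in pUC19 was 42.0% of reads and 48.6% of TPM, and the share of PCDHB9 in pUC19 was 27.6% of TPM and 24.1% per length found in no other gene, an alternative added after seeing the data. No called value changed direction under any alternative run.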
